A study of Mus musculus with 6 samples.

Results

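Ly6e and the Ly6 family of surface proteins were examined in a mouse study of isotoosendanin (ITSN), a plant limonoid. The members were Ly6e and every other gene of the expression table whose symbol starts with Ly6. That rule found 3 of 13823 listed genes, Ly6e, Ly6a and Ly6c1. Ly6e was picked because its values differed between treated and control mice, so its difference is described and no test of it is read. Ly6a and Ly6c1 came in by name alone.

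RNA was sequenced from 6 Balb/c mice, labelled male, 3 given ITSN by stomach tube at 1 mg/kg each day and 3 given dimethyl sulfoxide (DMSO), here called vehicle. The labels call the tissue breast, do not say whether it was tumour, and give neither an age nor the length of treatment. The series title places the study in triple-negative breast cancer and names TGFβR1, a receptor of the growth factor TGF-β, as the target of ITSN. Values are FPKM, fragments per unit of transcript length and of sequencing depth, and the depth of the libraries is unknown.

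Most Ly6 proteins are small and carry a lipid (GPI) anchor that holds them on the outer face of the cell membrane. They share a fold of finger-like loops pinned by disulfide bonds between cysteines. Ly6e is induced by interferon, limits the entry of some viruses and serves in the mouse placenta as the receptor of the fusion protein syncytin-A. In human breast cancer cells LY6E and its relative LY6K have been linked to TGF-β signalling. Ly6a encodes Sca-1, a marker of blood stem cells that also occurs on endothelial and mesenchymal cells. Ly6c1 encodes a form of the Ly6C antigen of monocytes and endothelium.

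The part of each gene that encodes the finger fold is shown to let the members be compared at the sites that define the family. The sequences are the coding strand from the first to the last cysteine codon of the fold with the codon that follows, from the GENCODE M21 annotation (mm10). Capitals mark the in-frame cysteine codons TGT and TGC.
Ly6e: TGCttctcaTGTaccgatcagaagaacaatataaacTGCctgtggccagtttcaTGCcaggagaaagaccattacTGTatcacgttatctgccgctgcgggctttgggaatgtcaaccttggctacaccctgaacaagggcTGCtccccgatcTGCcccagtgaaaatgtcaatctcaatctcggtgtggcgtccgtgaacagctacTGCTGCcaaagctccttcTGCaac
Ly6a: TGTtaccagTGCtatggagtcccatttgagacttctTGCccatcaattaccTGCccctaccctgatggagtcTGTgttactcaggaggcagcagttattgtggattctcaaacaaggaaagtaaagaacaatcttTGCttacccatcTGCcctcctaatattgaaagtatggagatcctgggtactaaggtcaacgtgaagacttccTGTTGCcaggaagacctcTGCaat
Ly6c1: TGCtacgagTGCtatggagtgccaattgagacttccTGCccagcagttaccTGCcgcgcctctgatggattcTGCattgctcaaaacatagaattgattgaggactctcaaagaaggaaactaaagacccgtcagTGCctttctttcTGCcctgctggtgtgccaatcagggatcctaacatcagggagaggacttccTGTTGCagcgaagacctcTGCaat
Each stretch held 10 cysteine codons, in 231 bases of Ly6e, 231 of Ly6a and 222 of Ly6c1. From first to last base, introns included, the Ly6e stretch spans chr15:74958283-74958617 on the plus strand. Those of Ly6a and Ly6c1 span chr15:74995352-74996554 and chr15:75045492-75047455 on the minus strand. Over the whole coding sequence Ly6a and Ly6c1 were identical at 83.7% of 393 aligned bases. Ly6e matched Ly6a at 64.6% of 367 aligned bases and Ly6c1 at 60.3% of 365.

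Likeness between members bears on how well sequenced fragments can be assigned. None of the 4184 distinct words of 50 bases in the annotated Ly6e transcripts occurred in a transcript of another gene, and no exon of another gene overlapped those of Ly6e. Of the Ly6a words 19.0% occurred elsewhere, most of them in Ly6c1. Of the Ly6c1 words 32.8% did, with 21.5% shared with Ly6c2 and 11.1% with Ly6a. The values of Ly6a and Ly6c1 are therefore uncertain to the extent that reads were split among these relatives, and how the authors assigned such reads is not stated.

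The annotation names 18 genes with the Ly6 prefix, of which 17 are protein coding. They lie on chromosome 15 (11 genes), chromosome 17 (6 genes) and chromosome 12 (1 pseudogene of Ly6e). The 3 listed members are neighbours on chromosome 15. Ly6e (ENSMUSG00000022587.14) spans 74955051 to 74959905, Ly6a (ENSMUSG00000075602.10) 74994877 to 74998031 and Ly6c1 (ENSMUSG00000079018.10) 75044018 to 75048830 in mm10. The other 15 were not among the listed genes, each of which reached at least 0.50 FPKM in the higher of the 2 group means. Among them were Ly6g, the Gr-1 antigen of neutrophils, Ly6c2, the other Ly6C gene, Ly6k, and Ly6d, a marker of squamous epithelium and early B cells.

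The libraries differed in more than treatment, and vehicle 1 stood apart. Mitochondrially encoded transcripts took 14.5% ± 1.10 of the FPKM sum in ITSN and 24.1% ± 7.54 in vehicle (SD, n = 3 each), with 32.3% in vehicle 1. The summed level of 10 listed fibroblast markers was 141 to 224 FPKM in ITSN and 54.6 to 231 FPKM in vehicle, the lowest being vehicle 1. Of 17 mammary epithelial markers 10 were listed, with Krt8 and Krt18 at 140 FPKM or more in every library. The milk genes Csn2, Wap and Lalba and the basal keratin Krt5 were not listed, while the milk gene Csn3 and the basal keratin Krt14 were. Of 8 fat cell markers 2 were listed, Fabp4 and Cfd, while Adipoq and Plin1 were not. Fabp4 and Cfd summed to 1.53 to 9.82 FPKM in ITSN and 5.66 to 6.40 FPKM in vehicle. The labels give male mice, yet the X-inactivation transcript Xist stood at 25.1 to 28.5 FPKM in ITSN and 20.1 to 29.3 FPKM in vehicle, and none of 4 Y-linked genes was listed. In such bulk samples fewer cells of a type and less RNA per cell cannot be told apart.

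Ly6e was higher in every ITSN library than in any vehicle library. It had 12.7, 11.4 and 14.0 FPKM in ITSN 1, 2 and 3, against 2.53, 2.68 and 3.04 FPKM in vehicle 1, 2 and 3. The gap between the groups, from the lowest ITSN to the highest vehicle library, was far wider than the spread within either. The means were 12.7 ± 1.29 FPKM in ITSN and 2.75 ± 0.259 FPKM in vehicle (SD, n = 3 each), a ratio of 4.63. On the log2(FPKM + 1) scale, which understates changes of low genes, the fitted change was 1.87 (SE 0.11).

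**Figure D1:**
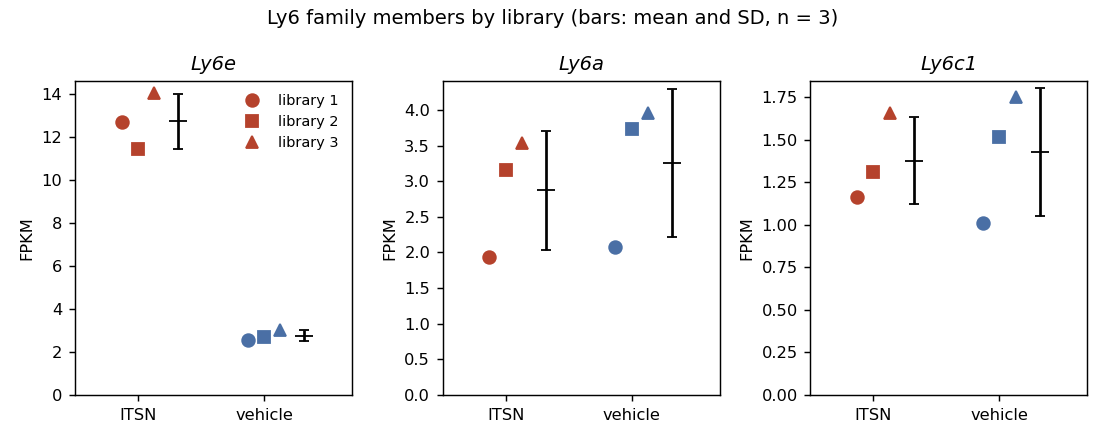
FPKM of the 3 Ly6 family members in each library (y axes from 0, 1 scale per gene), with ITSN left of vehicle. Marker shapes give the library number, which was not taken to pair mice, and black bars give the mean and SD of 3 libraries. Ly6e lies at 11.4 to 14.0 FPKM in ITSN and 2.53 to 3.04 FPKM in vehicle, while the groups overlap for Ly6a and Ly6c1.

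The decimals of the table bear on the length behind the Ly6e value. For genes with several transcripts, the gene value multiplied by the summed length of its merged exons gave whole multiples of 1e-06 in 99.96% of 56048 values under 50 FPKM, within 0.02 of a step, where a length 1 base shorter or longer gave 4.73% and 4.72%. Such steps are what a length-weighted sum of transcript FPKM divided by the merged exon length would give, a formula not checked against transcript values. For Ly6e the merged length is 3784 bases, from 16 annotated transcripts of 431 to 2281 bases. With the merged length taken out, which on the usual definition of FPKM and if that length was the divisor leaves a share of the mapped fragments, Ly6e took 0.00481%, 0.00433% and 0.00530% of them in ITSN 1, 2 and 3, against 0.000958%, 0.00101% and 0.00115% in vehicle 1, 2 and 3. Merging exons from all transcripts can make the FPKM of a gene lower than that of the single transcript it mainly expresses. Values of single transcripts were not used here.

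In position among all listed genes, Ly6e stood above 76.0%, 73.9% and 78.2% of them in ITSN 1, 2 and 3, against 35.9%, 33.5% and 36.2% in vehicle 1, 2 and 3. These ranks do not depend on a scaling of whole libraries. Its fitted change ranked 8 from the top among 12257 tested genes.

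Ly6a did not separate the groups. It had 1.94, 3.16 and 3.53 FPKM in ITSN 1, 2 and 3, against 2.07, 3.73 and 3.96 FPKM in vehicle 1, 2 and 3. In either group the lowest library lay well below the other pair. The means were 2.88 ± 0.835 FPKM in ITSN and 3.26 ± 1.03 FPKM in vehicle (SD, n = 3 each). The log2 change was -0.13 (SE 0.24, 95% interval -0.70 to 0.45, limma adjusted p = 0.80).

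Ly6c1 stood lower still and showed the same overlap. It had 1.16, 1.31 and 1.66 FPKM in ITSN 1, 2 and 3, against 1.01, 1.52 and 1.75 FPKM in vehicle 1, 2 and 3. The means were 1.38 ± 0.254 FPKM in ITSN and 1.43 ± 0.378 FPKM in vehicle (SD, n = 3 each). The log2 change was -0.02 (SE 0.15, 95% interval -0.38 to 0.33, limma adjusted p = 0.95). The intervals of both genes hold changes in either direction, so equal levels were not shown.

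Of the 2 members that came in by name alone, 0 passed an adjusted p under 0.05 in limma and 0 had an unadjusted p under 0.05. Of all tested genes 0.0571% passed (0.049% higher and 0.00816% lower in ITSN) and 20.9% had an unadjusted p under 0.05. Both of these members had overlapping groups, while groups did not overlap for 29.1% of tested genes (21.8% higher and 7.37% lower in ITSN). Ly6e, chosen on this contrast, is left out of these counts.

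The order of the members differed between the groups. As Ly6e was chosen for its difference, this order, its ratio to Ly6a and its share of the sum restate that difference. In every ITSN library Ly6e was the highest and Ly6c1 the lowest. In vehicle 2 and 3 Ly6a was above Ly6e, and in vehicle 1 Ly6e was above Ly6a. The ratio of Ly6e to Ly6a was 6.56, 3.63 and 3.97 in ITSN 1, 2 and 3, against 1.22, 0.718 and 0.766 in vehicle 1, 2 and 3. In vehicle the means of Ly6e and Ly6a differed by less than the SD of Ly6a. The ratio of Ly6a to Ly6c1, neither of which was chosen on its values, was 2.07 ± 0.379 in ITSN and 2.26 ± 0.207 in vehicle (SD, n = 3 each). Ly6e made up 75.1% ± 4.61 of the summed FPKM of the 3 genes in ITSN and 37.9% ± 6.29 in vehicle.

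Ly6a and Ly6c1 varied together across libraries. Over the 6 libraries Pearson's r of their log2 values was 0.919 (exact two-sided permutation p = 0.011) and Spearman's rho 0.886 (exact p = 0.033), as the 1 pair tested. Without ITSN 1 and vehicle 1, the libraries farthest from the median of Ly6a, r was 0.862 over 4 libraries. The 2 genes share 50-base words, as given above, and the part of shared reads in this relation was not tested. The summed endothelial markers, 41.9 to 51.2 FPKM in ITSN and 41.4 to 57.3 FPKM in vehicle, were highest in vehicle 1, where Ly6a and Ly6c1 were at or near their lowest. The fibroblast sum was lowest in that library, and the part of either cell type in these values was not tested.

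The estimate for Ly6e stayed well above 0 under every setting tried, while those for Ly6a and Ly6c1 stayed near it. As Ly6e was chosen for its difference in these same libraries, its direction was all but fixed. The settings give only the range of its estimate. The log2 change of Ly6e ran from 1.60, after removal of a trend with the GC content of transcripts, to 2.17, with a pseudocount of 0.1. The longest Ly6e transcript held 55.4% GC, against 48.1% for Ly6a and 49.6% for Ly6c1. With vehicle 1 left out the change of Ly6e was 1.83, and with both that library and the GC trend removed it was 1.64. For Ly6a the values ran from -0.35 without vehicle 1 to 0.06 without ITSN 1, and for Ly6c1 from -0.18 to 0.07.

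**Figure D2:**
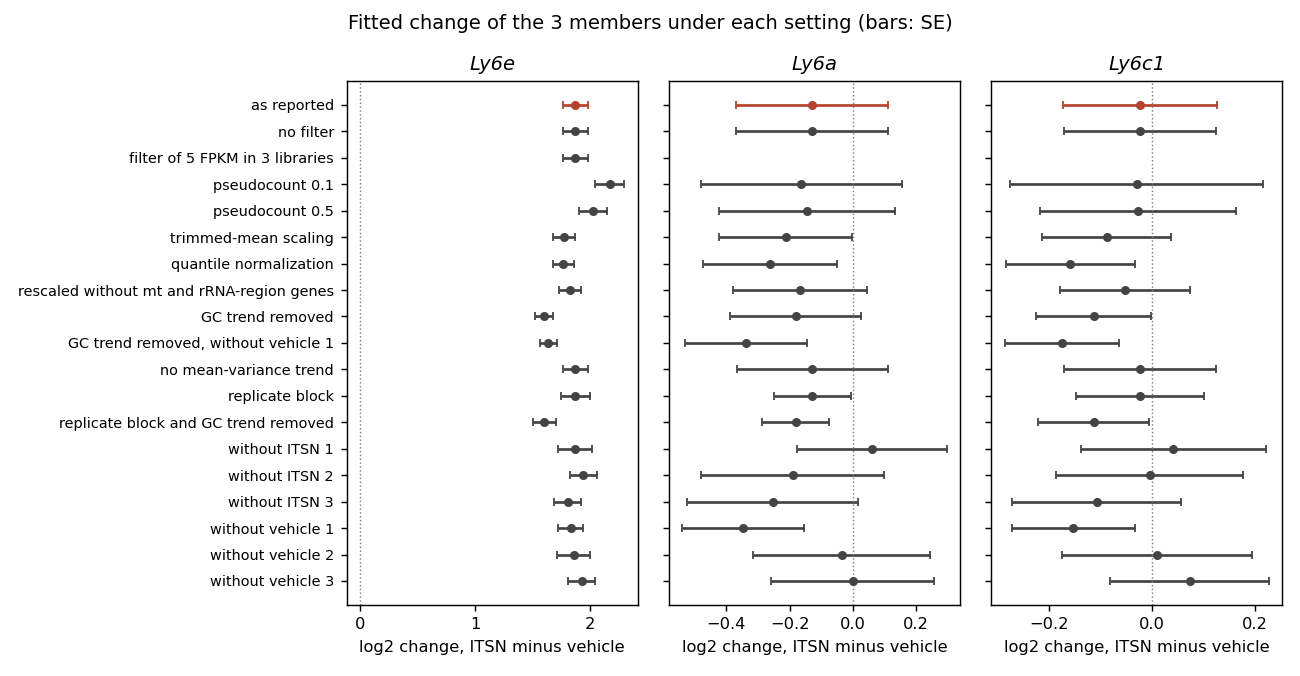
Fitted log2 change (ITSN minus vehicle, x axis, own scale per gene) of the 3 members under each processing setting (rows), with SE as bars. Points for Ly6e lie between 1.60 and 2.17, and those for Ly6a and Ly6c1 lie from -0.35 to 0.07.

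Genes around Ly6e on chromosome 15 had smaller changes. Within 1 Mb of its start 13 other genes were listed, of which 10 were tested, and none passed in limma. Of the 10, 3 had an unadjusted p under 0.05, where 20.9% of all tested genes did. The median log2 change of the 10 was 0.05, against 0.09 for all tested genes. In ITSN 5 of 10 were higher, against 64.0% of all tested genes. Changes of the 10 ran from -0.38 to 0.48. The nearest were Ly6a, 39.8 kb away, and Ly6c1, 89.0 kb away, the only listed genes within 250 kb. Groups did not overlap for 3 of the 10, near the 29.1% of all tested genes. Top1mt, the mitochondrial topoisomerase, was at 3.68 ± 0.155 FPKM in ITSN and 5.12 ± 0.432 in vehicle (log2 change -0.38, adjusted p = 0.11). Zc3h3, an mRNA export factor, was at 3.42 ± 0.702 FPKM in ITSN and 2.13 ± 0.0532 in vehicle (0.48, adjusted p = 0.12). Gsdmd, the pore-forming gasdermin D, was at 17.2 ± 1.08 FPKM in ITSN and 13.6 ± 1.63 in vehicle (0.32, adjusted p = 0.18; limma, SD, n = 3 each).

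**Figure D3:**
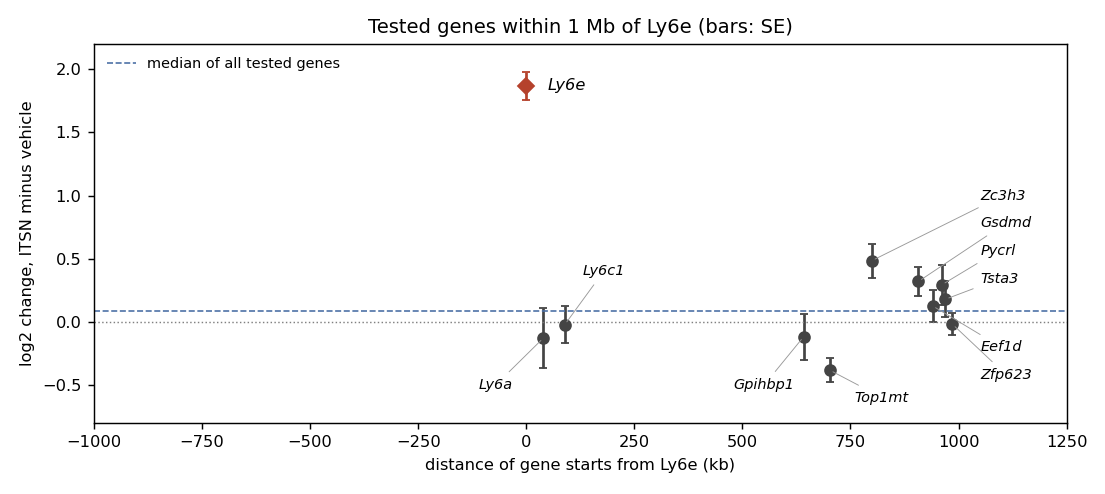
Fitted log2 change (ITSN minus vehicle, y axis, SE as bars) of tested genes against the distance of their starts from that of Ly6e (x axis, kb). Ly6e stands at 1.87, and its 10 tested neighbours lie between -0.38 and 0.48, on either side of the median of all tested genes.

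The genes closest to Ly6e in profile were described by Pearson's r of log2 values over the 6 libraries, among 9368 tested genes with a mean of at least 2 FPKM. The 8 nearest were Lrp10, Srebf1, Il17rc, Trmt1, Mknk2, Abca7, Ulk1 and Alkbh5, with r from 0.994 to 0.9997. In all, 20 genes had an r over 0.99 and 382 over 0.95, so a near match was not rare. Ly6e was chosen on this contrast, so a high r with it all but fixed that these genes separated the groups. All 8 did, with fitted log2 changes of 0.25 (Trmt1) to 0.98 (Lrp10). After removal of the GC trend those changes were smaller in all 8, from 0.07 for Trmt1 to 0.60 for Lrp10, with Mknk2 at 0.11, Ulk1 at 0.18 and Il17rc at 0.30. Within groups the deviations of Ly6e from the group means had an r of 0.98 with those of Lrp10, a relative of the LDL receptor. The same r was 0.99 with Srebf1, the regulator of fatty acid synthesis genes, and 0.996 with Il17rc, a subunit of the interleukin 17 receptor. It was lower for the other 5, at 0.945 with Abca7, 0.818 with Trmt1, 0.801 with Ulk1, 0.787 with Mknk2 and 0.635 with Alkbh5. The 8 were picked by r over the same 6 libraries, which also favours likeness within groups, so these values are no separate support. Srebf1 was at 8.39 ± 0.507 FPKM in ITSN and 4.60 ± 0.252 in vehicle, and Il17rc at 3.74 ± 0.299 in ITSN and 1.78 ± 0.126 in vehicle (SD, n = 3 each). The longest transcripts of the 8 genes held at most 62.0% GC, the highest being Il17rc.

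**Figure D4:**
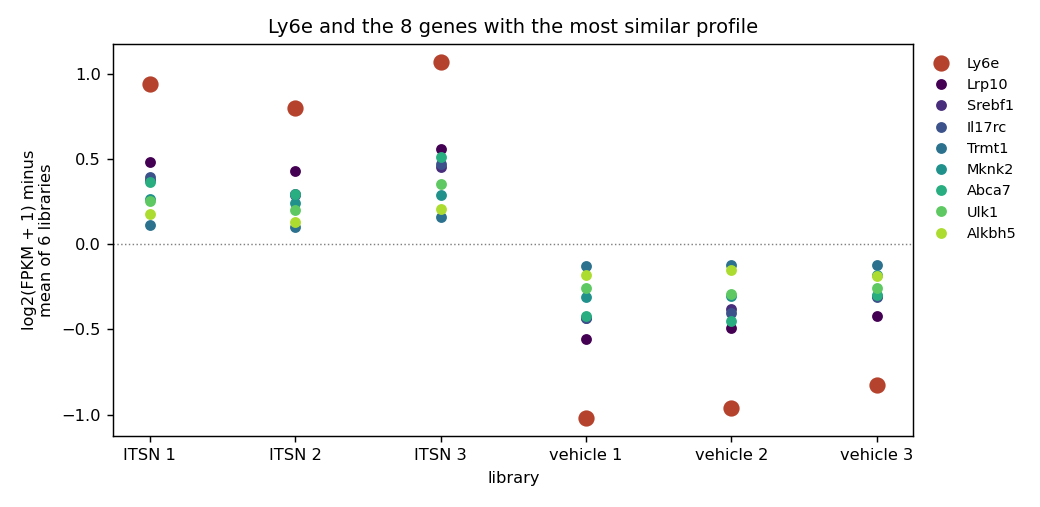
Log2(FPKM + 1) minus the mean over 6 libraries (y axis) for Ly6e (large red points) and the 8 genes with the highest r with it, by library (x axis). All 9 genes lie above their mean in ITSN 1 to 3 and below it in vehicle 1 to 3. The choice of Ly6e and the rule by r all but fixed this. Ly6e lies farthest from its mean.

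Relatives of Ly6 outside the name rule were scarce. Of 27 other Ly6/uPAR surface protein genes 3 were listed and 2 tested, and neither passed in limma. Of these 2, 1 had an unadjusted p under 0.05, where 20.9% of all tested genes did. Plaur, the urokinase receptor, had 19.2, 17.7 and 20.2 FPKM in ITSN 1, 2 and 3, against 12.8, 14.4 and 15.7 FPKM in vehicle 1, 2 and 3. Its groups did not overlap, and it differed by 0.39 (SE 0.10) on the log2 scale, at 0.12 for limma's adjusted p. After GC removal the change was 0.20. Gpihbp1, which anchors lipoprotein lipase to capillary walls, was at 1.08 ± 0.256 FPKM in ITSN and 1.28 ± 0.492 in vehicle (SD, n = 3 each; -0.12, limma adjusted p = 0.76). Lypd3 was listed but did not reach the expression filter. Receptors of the TGF-β superfamily, whose outer domains have a related finger fold, had 9 tested genes with a median of 0.09, close to that of all tested genes. None of the 9 passed in limma, and 1 had an unadjusted p under 0.05, where 20.9% of all tested genes did. Tgfbr1 was at 27.6, 29.1 and 26.5 FPKM in ITSN 1, 2 and 3, against 32.9, 29.0 and 28.4 in vehicle 1, 2 and 3, with overlap between the groups.

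Interferon-stimulated genes, to which Ly6e belongs by its known regulation, leaned to higher values without passing. Of 43 tested, 37 were higher in ITSN, or 86.0% against 64.0% of all tested genes. The median log2 change of the 43 was 0.22, against 0.09 for all tested genes. In limma 0 of the 43 passed, while 13 had an unadjusted p under 0.05, where 20.9% of all tested genes did. Groups did not overlap upward for 14, or 32.6% against 21.8% of all tested genes. Without vehicle 1, 27 of 43 were higher, with a median of 0.11 against 0.03 for all tested genes. After trimmed-mean scaling 28 were higher, with a median of 0.11 against -0.01. After GC removal 36 were higher, with a median of 0.13 against 0.004. All of these changes were smaller than that of Ly6e, the largest being 0.74 for Ifi35.

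Single members went in both directions. The most abundant was B2m, the light chain of MHC class I, at 684, 669 and 721 FPKM in ITSN 1, 2 and 3, against 869, 827 and 784 FPKM in vehicle 1, 2 and 3. It was lower in every ITSN library, at a log2 change of -0.26 (SE 0.11; adjusted p = 0.26 in limma). The membrane proteins Ifitm3 and Ifitm2, which block virus entry, had log2 changes of 0.50 and 0.38 (limma adjusted p = 0.19 and 0.091). Ifitm2 was at 81.8, 77.5 and 85.1 FPKM in ITSN 1, 2 and 3, against 64.1, 62.9 and 60.7 FPKM in vehicle 1, 2 and 3. Oas2, a sensor of double-stranded RNA, was at 1.77 ± 0.0592 FPKM in ITSN and 1.09 ± 0.190 in vehicle (0.41, limma adjusted p = 0.10). Ifit2, whose protein binds viral RNA, was at 6.56 ± 0.376 FPKM in ITSN and 9.01 ± 2.05 in vehicle (SD, n = 3 each; -0.38, limma adjusted p = 0.25). With vehicle 1 left out, 673 of 12257 tested genes passed in limma. Of this list Ifitm2 and Oas2 passed upward there (limma adjusted p = 0.043 and 0.047) and Ifit2 downward (0.035). Under removal of the GC trend as well, the limma adjusted p-values of these 3 were 0.11, 0.090 and 0.059. Their log2 changes without vehicle 1 were 0.39 for Ifitm2, 0.48 for Oas2 and -0.56 for Ifit2, and with the GC trend removed as well 0.23 for Ifitm2, 0.43 for Oas2 and -0.45 for Ifit2.

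Upstream of these genes, 9 interferon receptor and signalling genes were tested and none passed in limma. Of these, 3 had an unadjusted p under 0.05, where 20.9% of all tested genes did. In this list 6 of 9 were higher in ITSN, or 66.7% against 64.0% of all tested genes. After trimmed-mean scaling or GC removal 4 of 9 were higher. Socs1, a feedback inhibitor of the pathway, was at 1.93 ± 0.725 FPKM in ITSN and 0.460 ± 0.169 in vehicle (0.98, limma adjusted p = 0.079), and the kinase gene Tyk2 at 5.22 ± 0.689 FPKM in ITSN and 3.38 ± 0.399 in vehicle (0.50, adjusted p = 0.10; SD, n = 3 each). Socs1 was under 1 FPKM in every vehicle library, so it met the expression filter through its ITSN values alone. Its difference and p are not read for that reason. After GC removal the change was 0.60 for Socs1 and 0.18 for Tyk2. Socs3, a further feedback inhibitor, was at 26.9 ± 2.39 FPKM in ITSN and 20.7 ± 2.37 in vehicle (SD, n = 3 each; 0.36, limma adjusted p = 0.15). It passed upward without vehicle 1 (0.45, limma adjusted p = 0.049), where 673 of 12257 tested genes passed. The change of Socs3 was -0.01 after GC removal. The receptor genes Ifnar1, Ifnar2, Ifngr1 and Ifngr2 had log2 changes of 0.17, 0.05, -0.02 and 0.10. The ligand genes Ifnb1 and Ifng were not listed.

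**Figure D5:**
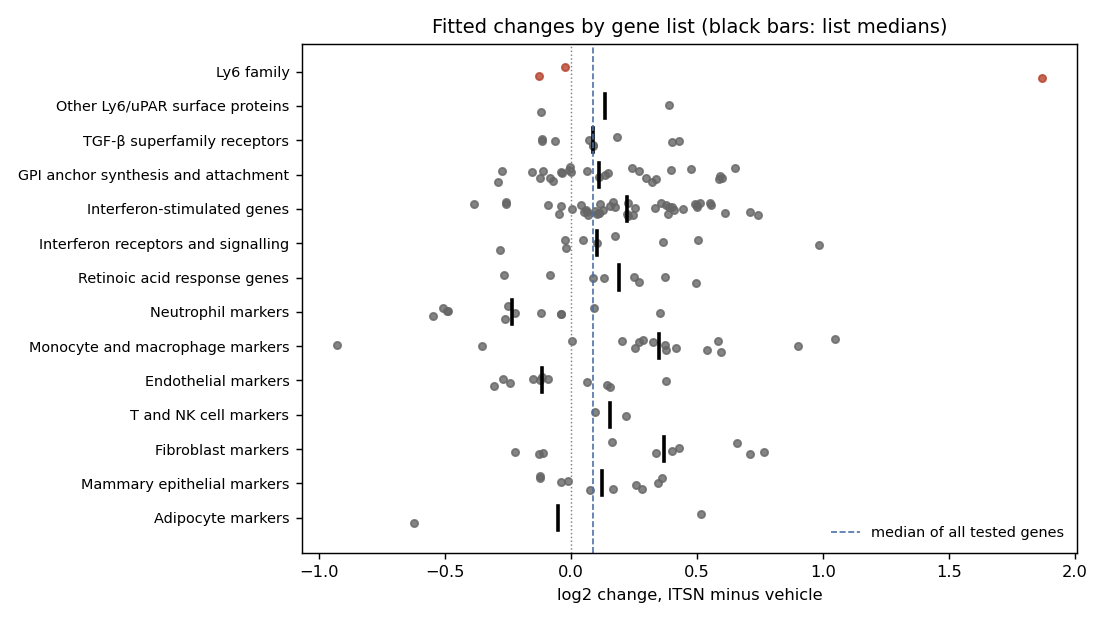
Fitted log2 change (ITSN minus vehicle, x axis) of each tested gene in the Ly6 family (red, top) and in each gene list (grey), with black bars at list medians and a dashed line at the median of all tested genes, 0.09. Ly6e at 1.87 lies to the right of every gene of the lists on the log2(FPKM + 1) scale, which understates changes of low genes. As a ratio of group means Ly6e was at 4.63 and the low gene Socs1 at 4.20.

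Ly6e is also known as RIG-E for its induction by retinoic acid in human leukaemia cells. Of 8 tested retinoic acid response genes 6 were higher in ITSN, or 75.0% against 64.0% of all tested genes. None of the 8 passed in limma, and 2 had an unadjusted p under 0.05, where 20.9% of all tested genes did. The median of the 8 was 0.19, and it was 0.026 after GC removal and 0.064 with quantile normalization. That of all tested genes was 0.09, 0.004 and -0.02 in the same order. Rara, a retinoic acid receptor, was at 14.8 ± 1.10 FPKM in ITSN and 10.2 ± 0.395 in vehicle (0.50, limma adjusted p = 0.076), and Tgm2, a tissue transglutaminase, at 32.7 ± 3.33 FPKM in ITSN and 25.1 ± 2.61 in vehicle (0.37, adjusted p = 0.15; SD, n = 3 each). Rara passed without vehicle 1 (limma adjusted p = 0.044), where 673 of 12257 tested genes passed. The change of Rara was 0.11 after GC removal.

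The genes that build and attach the GPI anchor, on which GPI-anchored Ly6 proteins depend, were mostly expressed. Of 30, 28 were listed and 27 tested, with a median of 0.11 against 0.09 for all tested genes. In ITSN 16 were higher and 11 lower, or 59.3% higher against 64.0% of all tested genes. None passed in limma, while 8 had an unadjusted p under 0.05, where 20.9% of all tested genes did. After trimmed-mean scaling 13 of 27 were higher, so the list has no firm direction. Gpaa1, a subunit of the transamidase that attaches the anchor, was at 2.27 ± 0.0859 FPKM in ITSN and 1.18 ± 0.0984 in vehicle (0.59, limma adjusted p = 0.068). Pigyl, which belongs to the first enzyme of anchor synthesis, was at 4.69 ± 0.236 FPKM in ITSN and 2.65 ± 0.506 in vehicle (0.65, limma adjusted p = 0.076; SD, n = 3 each). Both passed without vehicle 1 (limma adjusted p = 0.037 and 0.045), where 673 of 12257 tested genes passed. Their changes were 0.18 and 0.29 after GC removal. Piga, of the same enzyme, was lower in every ITSN library, with a log2 change of -0.11 (limma adjusted p = 0.50).

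Ly6 proteins serve as sorting markers of myeloid cells, and the markers of those cells were set beside the family. Of 15 neutrophil markers 13 were listed, with a summed level of 146 to 162 FPKM in ITSN and 134 to 288 FPKM in vehicle, the highest being vehicle 1. Of 12 tested, 2 were higher in ITSN, or 16.7% against 64.0% of all tested genes, with a median of -0.24 against 0.09. None of the 12 passed in limma and 0 had an unadjusted p under 0.05, where 20.9% of all tested genes did. Without vehicle 1, 5 of 12 were higher, with a median of -0.03. Elane and Mpo, of immature neutrophils, were not listed. S100a8 was at 27.6, 35.4 and 16.6 FPKM in ITSN 1, 2 and 3, against 65.4, 34.9 and 20.1 in vehicle 1, 2 and 3, with overlap between the groups, while Ly6g was not listed. The 2 tested neutrophil markers higher in ITSN were Csf3r and Mmp9. Csf3r was at 3.61 ± 0.339 FPKM in ITSN and 2.64 ± 0.686 in vehicle (SD, n = 3 each; 0.35, limma adjusted p = 0.26). The log2 change of Mmp9 was 0.09 (limma adjusted p = 0.91). All 16 monocyte and macrophage markers were listed, with a summed level of 620 to 638 FPKM in ITSN and 242 to 712 FPKM in vehicle, the lowest being vehicle 1. Of these 16, 14 were higher in ITSN, or 87.5% against 64.0% of all tested genes, with a median of 0.35 against 0.09. None of the 16 passed in limma, and 2 had an unadjusted p under 0.05, where 20.9% of all tested genes did. Without vehicle 1, 8 of 16 were higher, with a median of -0.04. C1qc, a chain of complement C1q, was at 43.9 ± 6.67 FPKM in ITSN and 24.9 ± 11.5 in vehicle (SD, n = 3 each; 0.90, limma adjusted p = 0.22), and its groups did not overlap. Against most of the list, Itgam, the CD11b integrin, was at 6.81 ± 0.566 FPKM in ITSN and 14.2 ± 4.04 in vehicle (SD, n = 3 each; -0.93, limma adjusted p = 0.085), and its groups did not overlap. Without vehicle 1, where 673 of 12257 tested genes passed, Itgam and Ms4a6c passed downward (limma adjusted p = 0.029 and 0.047). The log2 change of Ms4a6c was -0.63 there and 0.004 with all libraries. Trimmed-mean scaling gave Itgam a limma adjusted p of 0.048, where 108 genes passed. The monocyte receptor gene Ccr2 was at 7.43, 7.68 and 4.26 FPKM in ITSN 1, 2 and 3, against 2.03, 9.44 and 6.15 in vehicle 1, 2 and 3, while Ly6c2 was not listed.

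Most lymphocyte markers were low. Of 11 T and NK cell markers 7 were listed and 2 tested, with a summed level of up to 16.1 FPKM in ITSN and 17.2 FPKM in vehicle. Most of that sum was Gzmb, the granzyme B gene, at 10.5, 7.93 and 10.8 FPKM in ITSN 1, 2 and 3, against 6.49, 9.24 and 12.0 FPKM in vehicle 1, 2 and 3, with overlap between the groups. Cd3d and Cd4 were not listed. Of 8 B and plasma cell markers 1 was listed, Jchain, and it was not tested. It had 0.464, 0.419 and 0.671 FPKM in ITSN 1, 2 and 3. In vehicle 1, 2 and 3 it had 0, 0 and 0.121 FPKM. Its means were 0.518 FPKM in ITSN and 0.0402 FPKM in vehicle. Listing began at a group mean of 0.50 FPKM, so Jchain came in through its ITSN values alone. Its difference is not read for that reason. The parts of these cell types in the Ly6e values were not tested.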

How the data were processed

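RNA sequencing data of 6 mice were used, in groups taken from the treatment label. The authors deposited FPKM per gene and library, so named per the file headers. Per the submitters' processing notes, reads were placed on mm10. The aligner, quantifier and strand setting: not given in the sources used here. Columns were matched to samples by their descriptions, since the last ITSN column carries another number than that sample's title. Low values showed no steps of whole reads, so depth is unknown and no counting error can be given.

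The 12257 genes that reached 1 FPKM in 3 or more libraries entered the test, as log2(FPKM + 1) with limma 3.58.1 in R 4.3.3 (mean-variance trend, two-sided, Benjamini-Hochberg over all tested genes, threshold 0.05), after a check on simulated data. Ly6e is given without p. Gene lists and named genes followed written rules: all members, the 8 nearest profiles (predicted genes left out), genes within 250 kb, and list members with the smallest p or highest level. Some named genes, where outside these rules, were chosen after their values were seen. These were the neighbours beyond 250 kb, Tgfbr1, Piga, Ifit2, Ifi35, the interferon receptors, S100a8, Ccr2, Ms4a6c, Krt14, Csn3 and Jchain. Members and lists were chosen with earlier results of these data known. GC content came from the longest GENCODE M21 transcript of a gene, coding sequences from a single transcript each and 50-base words from all transcripts. A label gives 6 separate mice, so p-values measure the spread between mice. Other settings are in the closing section. Python 3.11.15 was used for other steps.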

Additional observations from a re-analysis of the deposited data

How the results depend on the processing

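Over 18 other settings the log2 change of Ly6e kept its direction, which its choice on this contrast all but fixed. It moved by more than the spread between libraries with a pseudocount of 0.1 (2.17) or 0.5 (2.02), after GC removal (1.60), with GC removal and without vehicle 1 (1.64), and with the replicate number as a block after GC removal (1.60). Leaving out 1 library gave 1.80 to 1.94. The log2 change of Ly6a turned to 0.060 without ITSN 1 (range 0.06 to -0.35 over libraries left out). That of Ly6c1 turned to 0.04 without ITSN 1, 0.0092 without vehicle 2 and 0.073 without vehicle 3 (range 0.07 to -0.15). Neither passed in limma under any setting where it was tested, and a filter of 5 FPKM left both untested. The cause was not tested.

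The number of genes passing in limma was 7, and 19 with a filter of 5 FPKM, 108 after trimmed-mean scaling (58 higher, 50 lower), 93 after quantile normalization (62 higher, 31 lower), 156 when mitochondrial genes, Gm26917 and Gm42418 were left out and the rest rescaled (117 higher, 39 lower), 93 with GC removal and without vehicle 1 (32 higher, 61 lower), and 1 to 673 with 1 library left out, the highest without vehicle 1 (410 higher, 263 lower). Trimmed-mean scaling and quantile normalization moved the median of all genes to -0.01 and -0.02, against 0.09. With the replicate number as a block 2 genes passed, and with the block and GC removal 0 did in limma, with 1210 at an unadjusted p under 0.05. A count of Ly6 members past the threshold never held one other than Ly6e, which was chosen on this contrast, so nothing is read from its values, 0 with the block and GC removal and 0 to 1 with 1 library left out. The numbers were taken as names of the mice. Over the tested genes, deviations of same-numbered libraries correlated at -0.0038, -0.14 and 0.24. Ly6a and Ly6c1 rose with the number in both groups, and the block took the SE of Ly6a from 0.24 to 0.12. An order or batch shared by number was not tested.

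Low FPKM and 3 mice per group limit what can be seen for Ly6a and Ly6c1.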
